A study of Mus musculus with 6 samples.

Results

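The cytokine receptors of early thymocytes are described here in thymocytes of the double-negative stage, before CD4 or CD8 appears on the surface. The 8 genes Il7r, Il2ra, Il2rg, Kit, Flt3, Il4ra, Il6ra and Csf2rb were named beforehand. Every probe set that the platform table assigns to 1 of these genes and to no other gene was taken. This gave 9 probe sets of 7 genes, out of 8251 genes named for the array. Il2rg had no probe set of its own, and 1 further probe set was left out because it is shared by Csf2rb and its paralogue Csf2rb2.

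Total RNA was profiled on 6 single-colour Affymetrix arrays. In 3 samples the thymocytes came from RAG1-deficient mice, and in the other 3 from mice mutant for both RAG1 and Ezh2. RAG1 is a subunit of the recombinase that joins antigen receptor gene segments, and the labels give its deficiency for every sample, so they name no wild-type thymus. Ezh2 is the methyltransferase of Polycomb repressive complex 2, which places H3K27me3 on chromatin. Mouse strain, sex, age, the exons removed and any Cre driver are not given in the labels used here. Nor do these say that the samples of a group are separate animals, so p-values measure no more than the spread between these samples, and that spread may be technical. The sample titles come in 3 wordings, called numbered, Rag and Thy here, and each wording holds 1 RAG1-deficient and 1 double mutant array. Replicates 1, 2 and 3 of each group are the numbered, Rag and Thy arrays in that order. No label states what a wording stands for, and the 2 Rag titles do not mention the double-negative stage. The numbered and Thy RAG1-deficient titles end in WT, a tag that their descriptions do not explain. Rag1 transcript stood at 6933, 7241 and 7264 in the RAG1-deficient and 5394, 5226 and 5171 in the double mutant arrays. With the removed exons not given, this signal does not check the RAG1 label. The library labelled RAG1-deficient replicate 1 goes against a double-negative stage, with Cd8a at 2973, Cd8b1 at 8426 and Cd4 at 699, while no other array exceeded 81.3 for Cd8a, 164 for Cd8b1 or 273 for Cd4. The receptors' differences without this library follow the account of the markers below. Ezh2 itself stood at 1435, 1641 and 1790 in the RAG1-deficient and 292, 651 and 724 in the double mutant arrays, without overlap (log2 difference -1.60 ± 0.34 SE; limma adjusted p = 0.332 with genotype alone and 0.0261 with title wording as a block). Between 55.2% and 64.3% of the probe sets of an array lay above the filter used below.

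Cytokine receptors tell a thymocyte precursor whether to survive, divide or move on. Progenitors that enter the thymus carry the receptor tyrosine kinases Kit and Flt3, and lose both as they commit to the T lineage. Il7r, which pairs with the common gamma chain encoded by Il2rg, carries the IL-7 signal through Jak1, Jak3 and Stat5 that keeps these cells alive. Il2ra encodes CD25, the alpha chain of the IL-2 receptor and the classical surface marker of the stage at which cells without RAG1 are held. Il4ra and Il6ra are the ligand-binding chains for IL-4 and IL-6, and Csf2rb is the shared beta chain for GM-CSF, IL-3 and IL-5 on myeloid cells.

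The promoter letters of 4 receptors are shown because their levels carry the results below, and because H3K27me3 is known to gather at promoters rich in the dinucleotide CG. Each run is the 250 bases before the RefSeq start in assembly GRCm38.p6, written 5′ to 3′ on the gene's strand, with every CG in capitals. The Il7r stretch lies at chr15:9529877-9530126 on the minus strand, that of Il2ra at chr2:11642542-11642791 on the plus strand, that of Kit at chr5:75574737-75574986 on the plus strand and that of Flt3 at chr5:147400490-147400739 on the minus strand.
Il7r: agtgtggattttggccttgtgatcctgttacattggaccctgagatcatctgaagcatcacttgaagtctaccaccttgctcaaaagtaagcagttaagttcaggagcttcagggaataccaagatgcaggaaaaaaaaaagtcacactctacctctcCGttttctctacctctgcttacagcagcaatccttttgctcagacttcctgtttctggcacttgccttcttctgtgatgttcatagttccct
Il2ra: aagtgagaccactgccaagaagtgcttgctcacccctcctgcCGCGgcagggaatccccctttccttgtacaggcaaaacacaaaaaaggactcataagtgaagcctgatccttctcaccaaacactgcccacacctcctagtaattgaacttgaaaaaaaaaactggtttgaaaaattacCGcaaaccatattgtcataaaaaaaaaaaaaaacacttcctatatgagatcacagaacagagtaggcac
Kit: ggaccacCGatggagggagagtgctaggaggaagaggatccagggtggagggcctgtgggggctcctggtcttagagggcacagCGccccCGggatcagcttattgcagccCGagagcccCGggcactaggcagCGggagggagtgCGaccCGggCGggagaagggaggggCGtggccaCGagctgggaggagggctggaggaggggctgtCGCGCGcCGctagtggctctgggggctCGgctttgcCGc
Flt3: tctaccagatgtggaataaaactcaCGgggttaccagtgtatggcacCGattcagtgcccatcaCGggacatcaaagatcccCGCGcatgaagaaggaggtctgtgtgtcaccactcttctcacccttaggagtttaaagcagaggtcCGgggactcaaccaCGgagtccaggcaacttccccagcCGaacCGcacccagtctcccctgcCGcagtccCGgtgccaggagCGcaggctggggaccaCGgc

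The receptor promoters lie on both sides of the median CG content. Il7r held 1 CG and Il2ra and Il2rg held 3 each, whereas Flt3 held 13, Kit and Il4ra 17 and Il6ra 18. Over all 32851 promoter stretches of this length the median was 6, with 37.8% holding 3 or fewer and 37.8% holding 10 or more. The letters TTCNNNGAA, a core pattern of STAT binding sites that reads alike on both strands, occurred once in the Il7r stretch and in none of the other receptors' stretches, against 7.02% of all promoters. A further Kit start lies 4 bases away and gave 18 CG. The arrays measure RNA only, so nothing was measured at these promoters.

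No receptor probe set passed the test between the genotypes. Intensities are the authors' linear values, scaled to 1 common mean per array, and levels of different probe sets cannot be compared. Differences are double mutant minus RAG1-deficient on the log2(intensity + 23) scale. On this scale, changes of dim probe sets come out too small. Of the 9 probe sets, 7 (from 6 genes) lay above the filter, an intensity of 86.5 on at least 3 arrays, and were tested. Csf2rb and the dimmer probe set of Il4ra lay under it. With limma and adjustment over all 7642 tested probe sets, 0 of the 7 passed in the fit with genotype alone (the unpaired fit), where 0.0393% of all tested probe sets passed, 3 higher and 0 lower. In the fit with title wording as a block (the paired fit) again 0 of the 7 passed, against 0.667% overall (0.563% higher and 0.105% lower). Before adjustment, at p under 0.05, the unpaired fit gave 0 and the paired fit 2, against 3.19% and 13.1% of all tested probe sets. The genotypes overlapped for all 9 probe sets, and 7.13% of all tested probe sets showed no overlap.

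Il7r and Kit lay in opposite directions, each alike in all 3 pairs, without passing the test. Il7r stood at intensities of 1337, 1495 and 1890 in RAG1-deficient replicates 1 to 3, and at 1075, 1050 and 1470 in the double mutant. The double mutant array was the lower of each pair, but the Thy double mutant array lay above the numbered RAG1-deficient array. The group means were 1574 ± 285 (SD, n = 3) and 1198 ± 236 (SD, n = 3). The log2 difference was -0.39 ± 0.24 (SE), with a 95% interval from -0.93 to 0.15 and an adjusted p of 1.0 in the unpaired limma fit. In the paired limma fit the interval ran from -0.67 to -0.11 and the adjusted p was 0.24 (unadjusted 0.0128). The pairs gave log2 differences of -0.31 (numbered), -0.50 (Rag) and -0.36 (Thy), the narrowest spread between pairs of any tested receptor probe set.

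Kit, the receptor for stem cell factor, lay the other way. Its intensities were 457, 191 and 249.8 in RAG1-deficient replicates 1 to 3 and 537, 302 and 403 in the double mutant. Again each pair had the same direction while the groups overlapped, because the numbered RAG1-deficient array was brighter than the Rag and Thy double mutant arrays. The means were 299 ± 140 (SD, n = 3) and 414 ± 118 (SD, n = 3). The log2 difference was 0.49 ± 0.35 (SE), and its 95% interval ran from -0.32 to 1.29. The adjusted p was 1.0 in the unpaired limma fit and 0.294 in the paired one (unadjusted 0.022, interval 0.09 to 0.88). From the numbered to the Rag and Thy pairs, the differences were 0.22, 0.60 and 0.64. Il7r and Kit were the 2 probe sets of the 9 with the same direction in all 3 pairs, which 35.9% of all tested probe sets showed.

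**Figure D1:**
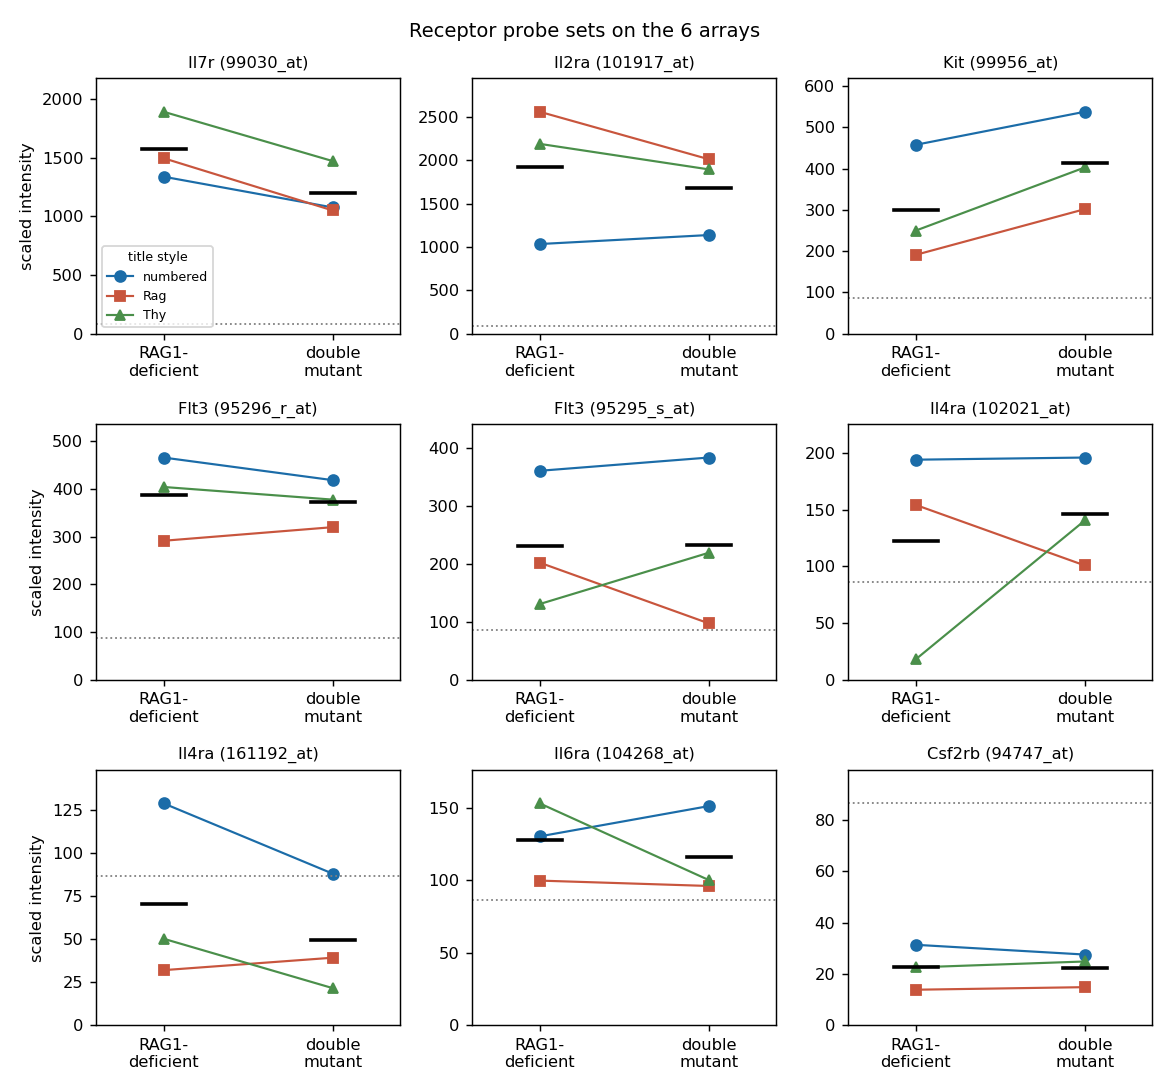
Scaled intensity of each receptor probe set (vertical axis, linear, from 0) on the RAG1-deficient and double mutant arrays, with lines joining arrays of the same title wording, black bars at group means (n = 3) and a dotted line at the filter of 86.5. Every Il7r line slopes down and every Kit line slopes up, while Il2ra is split by wording, with the numbered pair at 1035 and 1138 under all others.

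Il2ra showed no shared direction. It gave 1035, 2560 and 2190 in RAG1-deficient replicates 1 to 3 and 1138, 2013 and 1896 in the double mutant, so the numbered arrays of both genotypes were the lowest. The log2 difference between genotypes was -0.14 ± 0.37 (SE) with a 95% interval from -0.99 to 0.72, and the adjusted p was 1.0 (unpaired) and 0.715 (paired) in limma. The numbered pair lay at 0.13, the Rag pair at -0.34 and the Thy pair at -0.21.

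Flt3, the receptor of the earliest progenitors, was read by 2 probe sets. Neither has the plain _at ending of the other receptors' probe sets. The identifier of the brighter one ends in _r_at, and what its probes detect was not checked. The brighter one gave 466, 291 and 404 in the RAG1-deficient and 418, 319.6 and 377 in the double mutant arrays, a log2 difference of -0.04 ± 0.25 (SE) with an interval from -0.61 to 0.54. The dimmer one, whose identifier ends in _s_at and which can detect related transcripts, gave 361, 202 and 131 against 384, 97.2 and 219. Its log2 difference was -0.05 ± 0.50 (SE), made of pair differences of 0.08 (numbered), -0.91 (Rag) and 0.66 (Thy). Both Flt3 probe sets therefore had differences near 0, but the dimmer one left room for a change of about 1 log2 unit either way (interval -1.19 to 1.08). Neither passed in the paired limma fit (adjusted p of 0.941 and 0.957).

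The receptors for IL-4 and IL-6 were dim. Il4ra gave 194, 154 and 17.9 in the RAG1-deficient and 196, 101 and 140.4 in the double mutant arrays. Its log2 difference of 0.50 ± 0.63 (SE) rested on the Thy RAG1-deficient array: the pairs gave 0.01, -0.52 and 2.0, and without that array the difference was -0.26. The other probe set of Il4ra, untested, lay at -0.33, so the 2 probe sets of this gene differed in sign. Il6ra gave 130.4, 99.9 and 153 against 151, 96.2 and 100.3, a log2 difference of -0.12 ± 0.34 (SE) with pairs at 0.18, -0.04 and -0.52. Neither passed in the paired limma fit (adjusted p of 0.704 for Il4ra and 0.877 for Il6ra).

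Csf2rb lay far under the filter on every array, between 13.9 and 31.4. Its group means were 22.6 ± 8.75 (SD, n = 3) and 22.5 ± 6.69 (SD, n = 3), close to the added constant of 23, so no difference in either direction could be measured with this probe set. Its paralogue Csf2rb2, which also carries the IL-3 signal in mice, was above the filter with a log2 difference of 0.02.

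**Figure D2:**
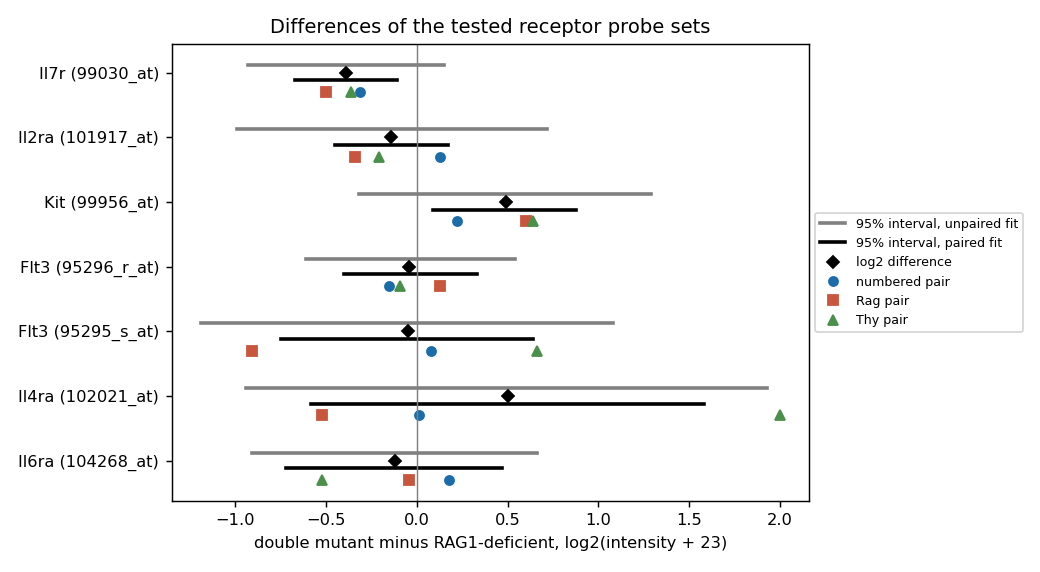
Log2 difference, double mutant minus RAG1-deficient, of the 7 tested receptor probe sets (horizontal axis), with the 95% intervals of the unpaired (grey) and paired (black) limma fits and each title-wording pair as a coloured symbol (n = 3 arrays a group). All 7 unpaired intervals cross 0, and only those of Il7r and Kit leave 0 outside in the paired fit, before adjustment over all probe sets.

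Title wording took a larger share of the sum of squares than genotype in every tested receptor probe set, as given below. These raw shares favour wording, which has 3 levels against 2 for genotype. For Il7r, whose 2 shares lay closest, the paired limma fit gave unadjusted p values of 0.0276 for wording and 0.0128 for genotype. A limma F test for wording, in the fit that also holds genotype, called Il2ra (adjusted p = 0.00979) and Kit (adjusted p = 0.0287) among the 7 tested receptor probe sets. Such calls were common, with 30.2% of all tested probe sets. The Il2ra level averaged over the pair was 10.11 log2 units for the numbered wording, 11.16 for Rag and 11.01 for Thy. Kit ran the opposite way, with averages of 9.02 (numbered), 8.04 (Rag) and 8.41 (Thy). The Kit call ended without the filter (adjusted p = 0.055) and with quantile scaling (0.0532), whereas that of Il2ra held in both (0.0185 and 0.0183).

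Flt3 and Il7r did not pass the wording test, though both Flt3 probe sets were brightest on the 2 numbered arrays and Il7r was brightest in the Thy arrays of each genotype. Their adjusted p values were 0.147 and 0.0617 for the Flt3 probe sets and 0.0722 for Il7r in the limma F test. Wording took 93.5% of the sum of squares of Il2ra and genotype 2.09%. For Kit the shares were 70.3% and 25.8%, and for Il7r 52.1% and 45.8%, against medians of 72.1% and 7.24% over all tested probe sets. The brighter Flt3 probe set gave 91.9% and 0.769%, and the dimmer one 74.2% and 0.184%. Il4ra gave 48.8% and 8.93%, and Il6ra 56.3% and 6.79%. The numbered arrays thus combined the lowest Il2ra with the highest Kit and Flt3 signal, in both genotypes.

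**Figure D3:**
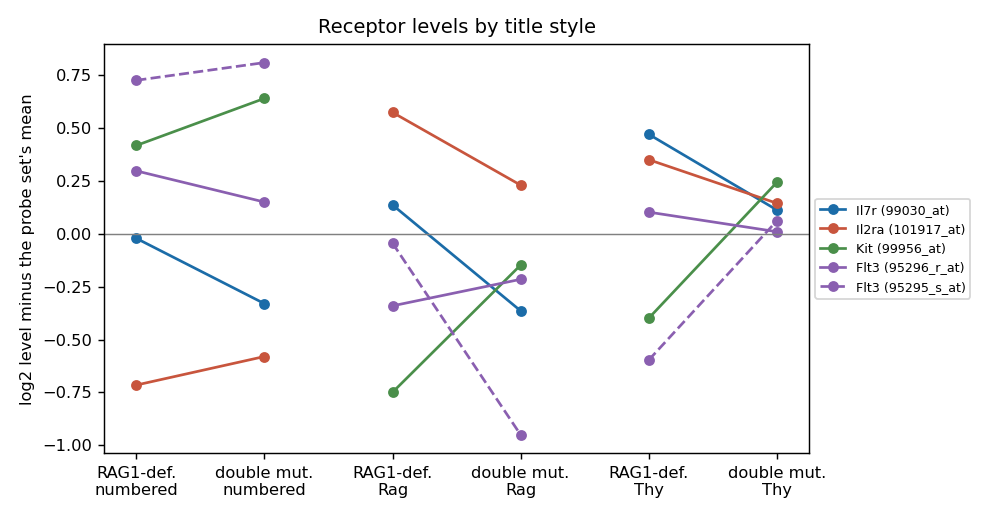
Log2 level of 5 receptor probe sets minus the mean of that probe set over the 6 arrays (vertical axis), ordered by title wording, with lines joining the RAG1-deficient and double mutant array of a wording. Il2ra (red) lies below 0 on both numbered arrays and above 0 on the other 4, and Kit (green) lies above 0 on both numbered arrays.

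Markers of the sampled and other cell types were read on the same arrays. The T lineage genes were bright, with Cd3g between 13676 and 25629 and Thy1 between 6431 and 19975. The sum over 13 measured thymocyte markers was 59614, 86260 and 71377 in the RAG1-deficient and 52293, 72689 and 52863 in the double mutant arrays, so, like Il7r, it was lower in the double mutant of each pair. Without RAG1-deficient replicate 1, the library with the CD8 signal, the log2 difference was -0.50 for Il7r, -0.53 for Il2ra, -0.10 for Il6ra, 0.95 for Il4ra and 0.82 for Kit. The Flt3 probe sets then lay at 0.10 (brighter) and 0.29 (dimmer), both with the opposite sign to that with all arrays, and no receptor passed in limma. Without RAG1-deficient replicate 2 Kit lay at 0.24, without double mutant replicate 1 at 0.29, and without RAG1-deficient replicate 3 Il7r lay at -0.25. In bulk RNA, fewer cells of a type and less RNA per cell cannot be told apart.

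Kit is also a mast cell receptor, and 1 of the mast cell markers, Cpa3, rose in the double mutant. The sum over 13 mast cell and basophil markers was 1325, 1652 and 1988 in the RAG1-deficient and 2160, 4042 and 2749 in the double mutant arrays. Without Cpa3, left out after its values were seen, the sum over the other 12 was 1169, 1138 and 1419 against 1153, 1050 and 1462, and the groups overlapped. Of these 13 markers, 5 were tested and 1 passed. This was the carboxypeptidase gene Cpa3, which rose from 156, 513 and 569 to 1007, 2992 and 1287 (log2 difference 2.05, adjusted p = 0.0261 in the paired limma fit). The other tested markers were the tryptase gene Tpsb2 (log2 difference 0.17), Cma1 (-0.41), Gata2 (0.19) and Srgn (-0.06). Tpsb2 stood at 280, 109 and 136 against 317, 121 and 163. Among the untested markers, the tryptase gene Tpsab1 lay between 2.6 and 7.0 on all arrays and the IgE receptor gene Fcer1a between 2.1 and 37.3. Cpa3 was highest on the Rag double mutant array, where Kit was lower than on the other double mutant arrays. Kit was, however, lowest on the Rag array in both genotypes. Within every title-wording pair, both Cpa3 and Kit were higher on the double mutant array. The part of these cells in the Kit values was not tested.

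NK and innate lymphoid markers summed to between 3629 and 5512 in the RAG1-deficient and between 9534 and 11306 in the double mutant arrays (13 of 18 measured). Of 10 tested, 2 rose in the paired limma fit, the granzyme genes Gzma and Gzmb, and 0 in the unpaired one. Without Gzma, left out after its values were seen, the sums were 2461, 3348 and 2385 against 3209, 2730 and 4551, and the groups overlapped. Antigen-presenting markers (13 of 14 measured), whose cells can carry Flt3, summed to 33130, 25405 and 7080 against 23333, 11996 and 6783. They were highest on the numbered array of each genotype, as both Flt3 probe sets were. On the other arrays the orders differed, since these sums were lowest on the Thy arrays. The brighter Flt3 probe set was higher on Thy than on Rag, at 404 against 291 (RAG1-deficient) and 377 against 319.6 (double mutant). The dimmer one was higher on Thy in the double mutant (219 against 97.2) but lower in the RAG1-deficient arrays (131 against 202). Myeloid markers (19 of 20 measured) summed to 19787 on the Rag RAG1-deficient array, against 4274 to 8808 on the other arrays. Their part in the receptor values was not tested. RNA quality read from the control probe sets of Gapdh gave 3′ to 5′ ratios from 0.84 to 1.35, with the Rag array the highest in each genotype. The actin control ratios ran from 1.24 to 2.77, again with the Rag arrays highest, at 2.26 and 2.77.

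**Figure D4:**
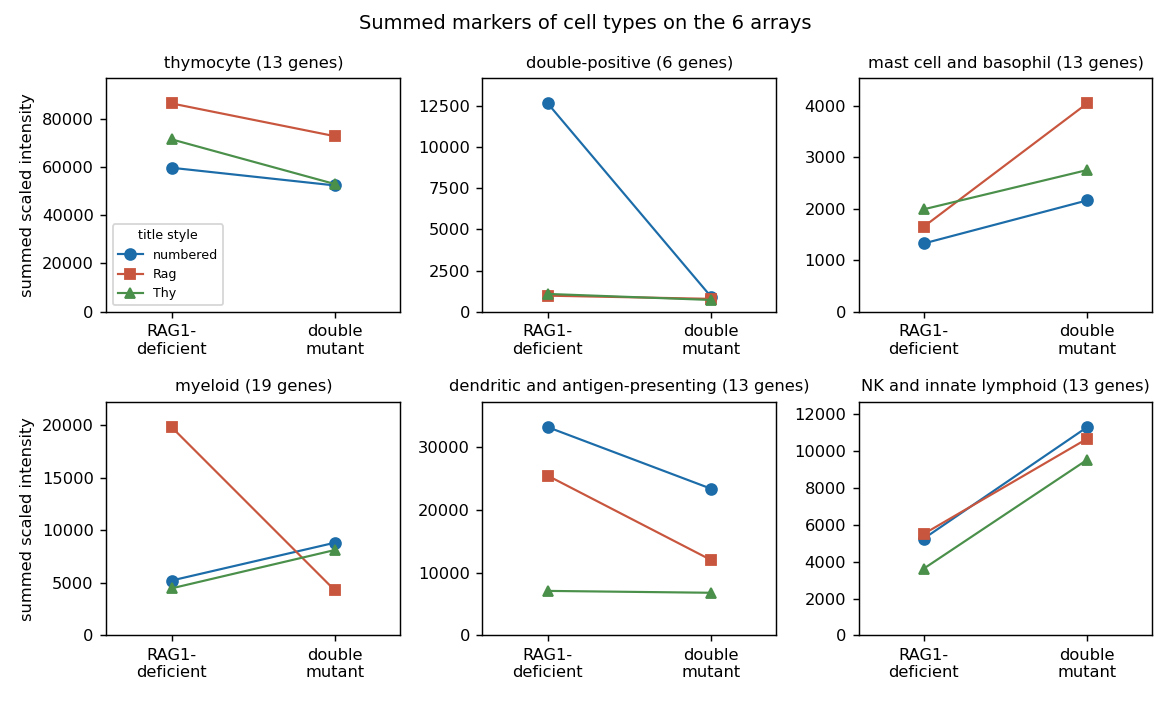
Summed scaled intensity of the measured markers of 6 cell types (vertical axis, from 0) on the RAG1-deficient and double mutant arrays, lines joining arrays of the same title wording. The double-positive sum is 12655 on the numbered RAG1-deficient array and at most 1080 elsewhere, and the mast cell and NK sums, higher in the double mutant of each pair, overlap between the groups once Cpa3 and Gzma are left out.

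The ligands of these receptors mostly lay under the filter. Of 14 ligand genes 12 were on the array and 1 was tested. This was Flt3l, the Flt3 ligand, at 331, 260 and 146 against 280, 160 and 194, with a log2 difference of -0.17 ± 0.35 (SE). Il7, made by thymic epithelium, lay between 5.7 and 63.4, and Kitl, the Kit ligand, between 7.4 and 86.5. IL-2 transcript (Il2) did not exceed 5.1 on any array.

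Among 33 other haematopoietic cytokine receptors, 28 were measured and 20 tested, of which 7 lay above and 13 below 0. Their median log2 difference was -0.11, against -0.00213 over all tested probe sets (3790 above and 3852 below 0). None passed in either limma fit, with 1 (unpaired) and 2 (paired) at an unadjusted p under 0.05. The erythropoietin receptor gene Epor lay highest, at 60.2, 122 and 38.3 against 145, 160 and 192, without overlap (log2 difference 1.05 ± 0.41 SE, paired adjusted p = 0.251 in limma). The interferon gamma receptor gene Ifngr1 lay lowest, at -0.72 ± 0.35 (SE), with -1.70 in the Thy pair and 0.06 in the Rag pair. Il15ra, the alpha chain for IL-15, had a log2 difference of 0.31 and Il17ra one of -0.25, with a second probe set at -0.17. Il2rb, the beta chain shared by IL-2 and IL-15, lay at -0.02.

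Downstream of the receptors, 21 kinase, STAT and adaptor genes were tested, 10 above and 11 below 0 (median -0.04), and none passed in either limma fit (0 and 4 at an unadjusted p under 0.05). Stat5a, a transducer of IL-7 signals, had a log2 difference of 0.42 ± 0.24 (SE), with intensities of 2152, 3404 and 2982 against 3245, 4092 and 3946. It was higher in the double mutant of each pair, in the opposite direction to Il7r, and its second probe set gave 0.36. The other Stat5 gene, Stat5b, lay at 0.60 ± 0.81 (SE), with 437, 47.1 and 407 against 439, 117 and 725. Stat5b differed between title wordings (adjusted p = 0.00293 in the limma F test). Stat3, which carries the IL-6 signal, lay at 1162, 1135 and 985 against 1386, 1477 and 1442, without overlap (log2 difference 0.39). Its second probe set gave 0.45, but there the groups overlapped. The paired adjusted p was 0.195 for Stat5a and 0.259 for Stat3 in limma. Stat6, the IL-4 transducer, lay at -0.28 and the phosphatase gene Ptpn6 at -0.30. The IL-7 receptor kinases Jak1 and Jak3 lay at 0.04 and -0.04.

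The listed inhibitors of cytokine signalling went mostly upwards in sign. Beside the Socs genes and Cish, which lay on both sides of 0, the list holds Pias1, Pias2, Pias3, Ptpn1 and Ptpn2, all above 0. Of 10 tested, 8 lay above and 2 below 0 (median 0.18), and none passed in either limma fit (0 and 1 at an unadjusted p under 0.05). The 2 below 0 were Socs1 with -0.26 ± 0.44 (SE) and Socs3 with -0.45 ± 0.22 (SE), and a second probe set of Socs3 gave -0.25. Socs2 lay at 0.28 and the phosphatase gene Ptpn1 at 0.25, and the STAT5 target Cish at 0.18. With quantile scaling the split was 7 above and 3 below.

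Listed target genes of these receptors' signals showed the same lack of calls. The list is not limited to genes that the signals raise, and also holds Bcl2l11, Cdkn1b and Klf2. Its count of signs therefore gives no direction of the signals. Of 14 tested targets 11 lay above and 3 below 0 (median 0.12), 10 and 4 with quantile scaling, and none passed in either limma fit (0 at an unadjusted p under 0.05 in both). The survival gene Bcl2, held up by IL-7, had a log2 difference of 0.16 and its relative Mcl1 one of 0.02. The cyclin gene Ccnd2 lay at 0.46 ± 0.49 (SE), the death gene Bcl2l11 at 0.18 (a second probe set at 0.10) and the kinase gene Pim1 at -0.22, with a second Pim1 probe set at 0.09. Xbp1 lay at -0.23.

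Transcription factors known to act on the receptor genes were split evenly, with 7 of 15 tested above and 8 below 0 (median -0.10). None passed in either limma fit (0 and 1 at an unadjusted p under 0.05). Cebpa, a myeloid factor, had a log2 difference of -0.50 and was lower in each pair. Notch1, which acts on Il2ra and other early T cell genes, lay at -0.32 with a second probe set at -0.21, Tcf3 at 0.41 and Gfi1b at 0.34.

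Among 13 tested markers of the double-negative stages, Kit was the only gene above 0, and 12 lay below, with a median of -0.29. The split was the same with quantile and with median scaling. None passed in either limma fit, with 2 (unpaired) and 5 (paired) at an unadjusted p under 0.05. The split did depend on RAG1-deficient replicate 1, the library with the CD8 signal. Without it Flt3 lay above 0 (0.10), while Kit (0.82), Il7r (-0.50) and Il2ra (-0.53) kept their signs. Signs of the other listed markers were not counted without this library. Ptcra, which encodes the alpha chain of the pre-T cell receptor, lay at 6588, 10480 and 8063 against 5140, 5964 and 4614, without overlap (log2 difference -0.66 ± 0.24 SE, paired adjusted p = 0.0827 in limma). Rag1 transcript lay at -0.44 ± 0.19 (SE) and its dimmer probe set at -0.29. The list holds Il7r, Il2ra, Kit and Flt3 themselves, and was drawn up with earlier results of these samples known, so its count is no independent evidence of a direction.

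**Figure D5:**
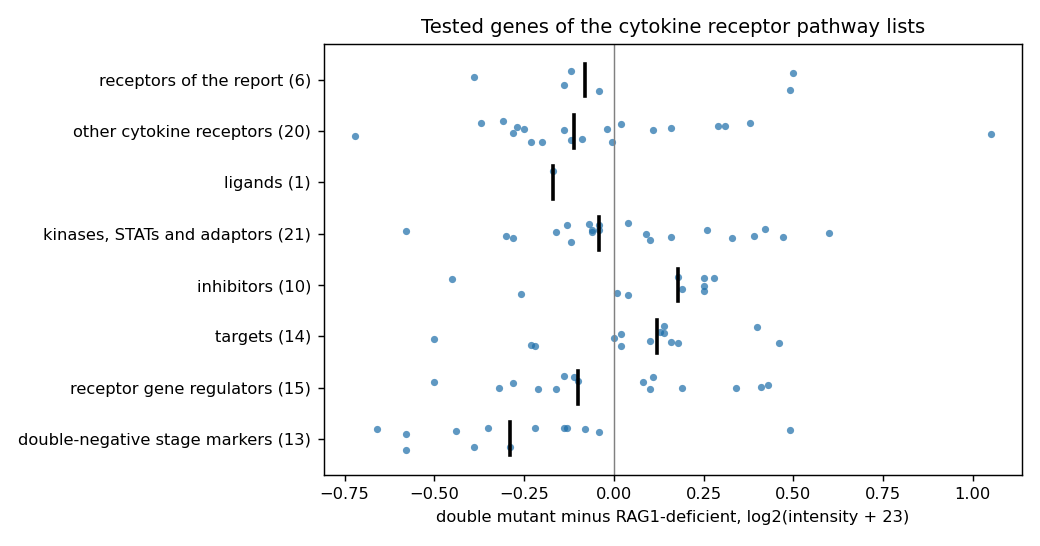
Log2 difference, double mutant minus RAG1-deficient, of each tested gene (points, brightest probe set of the gene) in 8 lists, with the number tested in brackets and a black bar at the median. The stage markers have their median at -0.29 and the inhibitors at 0.18, and points spread over both sides of 0 in every list with more than 1 tested gene.

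The genes whose levels ran most like a receptor over the 6 arrays were found by Pearson's r, as a description only. They were Gm20362, Ppp1r21 and Krt81 for Il7r (r from 0.979 to 0.995), Slc25a36, Eif4ebp2 and Fads1 for Il2ra (0.991 to 0.998), and Zfr2, Nog and Orc4 for Kit (0.987 to 0.997). These are the extremes of 7642 probe sets over arrays that share title wordings.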

How the data were processed

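The authors deposited a linear intensity per array for 12488 probe sets. How these were computed is not given in the sources used here. The 2%-trimmed mean of each array lay between 500.3 and 500.4, so the arrays had been scaled to a common mean, and a change common to most transcripts would not be seen. The 66 control probe sets were not tested. Symbols came from the platform table, with names checked by Entrez number against RefSeq (GRCm38.p6).

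The tests used log2(intensity + 23), with the rounded 20th percentile of the table as the added constant, for probe sets above 86.5 (the 40th percentile) on at least 3 of the 6 arrays. The fits used limma 3.58.1 in R 4.3.3 (lmFit, eBayes with a trend), two-sided, with Benjamini-Hochberg adjustment over 7642 probe sets and a threshold of 0.05. The script was tested on simulated data. The smallest exact two-sided permutation p of a single receptor was 0.2, and 3 arrays against 3 cannot give less than 0.1. The number of arrays limits the precision.

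Deviations from the group means correlated between the arrays of a wording at 0.57 (numbered), 0.736 (Rag) and 0.602 (Thy), above the limit of 0.1, so the paired fit is given too. Pairing is read from titles and data; no label states a shared litter or day. A gene with several probe sets is represented by the brightest. From each pathway list the text names every gene that passed, then the 2 with the smallest p in each direction of the unpaired fit; other genes named were chosen after their values were seen. The receptors and lists were chosen with earlier results of these data known. Alternatives were other pseudocounts, filters, scalings, no trend, the block and leaving out arrays or pairs.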

Additional observations from a re-analysis of the deposited data

How the results depend on the processing

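Across 17 alternatives, 0 receptor probe sets passed in either direction under any of them. Il7r stayed below 0 (-0.54 to -0.25) and Kit above 0 (0.24 to 0.82) in every alternative. The other 5 tested receptor probe sets changed sign in 13 cases, each when an array or pair was left out: with 1 array or pair left out the range was -0.53 to 0.12 for Il2ra, -0.22 to 0.10 for the brighter and -0.47 to 0.41 for the dimmer Flt3 probe set, -0.26 to 1.01 for Il4ra (up to 0.95 in the unpaired fit) and -0.30 to 0.07 for Il6ra. In the blocked fit the brighter Flt3 probe set lay at 0.02 without the numbered pair and the dimmer one at 0.37 without the Rag pair. The cause was not tested. The wording term called 1 receptor, Il2ra, instead of 2 without the filter and 1 with quantile scaling.

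Over all tested probe sets, 3 were higher and 0 lower in the unpaired fit, against 43 higher and 8 lower with the replicate block, 6 higher with the filter at the 60th percentile and 5 higher with quantile scaling. With an array or, in the blocked fit, a pair left out, between 0 and 127 were higher and between 0 and 64 lower. The 127 and 64 came without the Rag pair; without the numbered pair the blocked fit gave 12 and 2. The unpaired fit gave 6 higher without RAG1-deficient replicate 1, 1 without double mutant replicate 2 and 0 without replicate 3 of either group. The block changed no receptor's call. No detection calls were used, so signal over background is unknown for Csf2rb, Il6ra and Il4ra.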
